A study of Sus scrofa with 40 samples.

Results

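Calorie restriction was compared with free feeding in the backfat of pigs with high residual feed intake (RFI), which eat more than their growth and maintenance predict. The comparison holds 10 of the 40 arrays of the series, chosen by their titles, from 5 restricted and 5 ad libitum pigs of the high RFI line. The pigs were prepubertal Yorkshire gilts of 6 months, described as heterozygous for a variant of MC4R, a receptor in the brain's control of feeding, and the tissue was the middle layer of backfat over the 10th rib. The restricted pigs received 80% of maintenance for 8 days, and the others were fed ad libitum for 8 days. The low RFI line was treated the same way, and its 10 backfat arrays serve here for the comparison of lines. The numbers 1 to 5 name different pigs in each group. The labels tie no number to a litter or a day, and p-values measure the spread between these pigs.

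Subcutaneous fat is the main site of fatty acid synthesis in the pig. Its adipocytes turn glucose into pyruvate, move carbon out of the mitochondrion as citrate, and build palmitate from it with acetyl-CoA carboxylase and fatty acid synthase, using NADPH from malic enzyme and the pentose phosphate pathway. The palmitate is lengthened, desaturated and esterified to triglyceride. When feed is short this synthesis is held back, and stored triglyceride is broken down by lipases for use elsewhere.

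Each level below is the log2 of the deposited intensity of a probe set, a group of short probes for 1 transcript, and a change is the restricted mean minus the ad libitum mean on that scale. The median intensity of the 10 arrays lay between 157 and 187. Its log2 was higher by 0.107 in the restricted pigs, at a mean of 7.48 against 7.37 (exact permutation p = 0.0556, adjusted p = 0.111 over 4 tests). The tissue carried its defining adipocyte markers: ADIPOQ (adiponectin) lay between 14.18 and 14.92 and FABP4, a fatty acid binding protein of adipocytes, between 14.0 and 14.49 over the 10 pigs. The mean log2 intensity of 10 adipocyte markers was 12.85 to 13.03 ad libitum and 12.73 to 12.95 restricted. The mean of 24 skeletal muscle markers varied widely within both diets, from 5.55 to 8.84 ad libitum and from 6.23 to 10.84 restricted, and 0 of the 24 passed the test (lowest adjusted p 0.189). By limma's adjusted p, 0 of 13 endothelial, 8 smooth muscle, 2 epidermal, 2 erythroid and 4 nerve markers passed either (2, 0, 0, 1 and 1 at an unadjusted p under 0.05). Among the endothelial markers 2 were higher without ad libitum pig 3. In bulk tissue, fewer cells of a type and less RNA per cell cannot be told apart.

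Ad libitum pig 3 stood apart from its group, and it lay toward the restricted pigs. It was placed by the 1426 probe sets that restriction changed in the low RFI line. This pig entered neither group mean of that comparison. The estimate of spread and the intensity filter came from all 20 backfat arrays, this pig included. Its median position was 0.55 of the way from the mean of the other ad libitum high RFI pigs (0) to the restricted mean (1). Of these probe sets 54.4% were past the midpoint. The medians of the other 9 high RFI pigs, each set between its own and the other diet in the same way, ran from -0.40 to 0.21. The total count and most list counts are therefore also given without this pig. The arrays numbered 1 and 2 also separated from those numbered 3 to 5 along the first principal component of the deviations from the group means, which held 19.1% of their variance.

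The ratio of the 3' to the 5' GAPDH control probe set, a measure that rises when RNA is shorter or less fully copied, moved with the diet. Its log2 was 1.16, 1.19, 1.81, 1.24 and 0.92 in ad libitum pigs 1 to 5 and 1.81, 1.64, 2.32, 1.65 and 2.26 in restricted pigs 1 to 5. The restricted pigs were higher by 0.676 (exact permutation test, two-sided, p = 0.0238, adjusted p = 0.0952 over 4 tests, smallest possible p 0.00794), and ad libitum pig 3 lay within the restricted range. The same ratio of actin differed by -0.065 (exact permutation p = 0.841) and that of EF1a by -0.019 (exact permutation p = 0.683). The 5' GAPDH probe set was lower by 1.26 in the restricted pigs and the 3' one by 0.59, so transcript level and RNA quality cannot be told apart in this ratio.

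**Figure D1:**
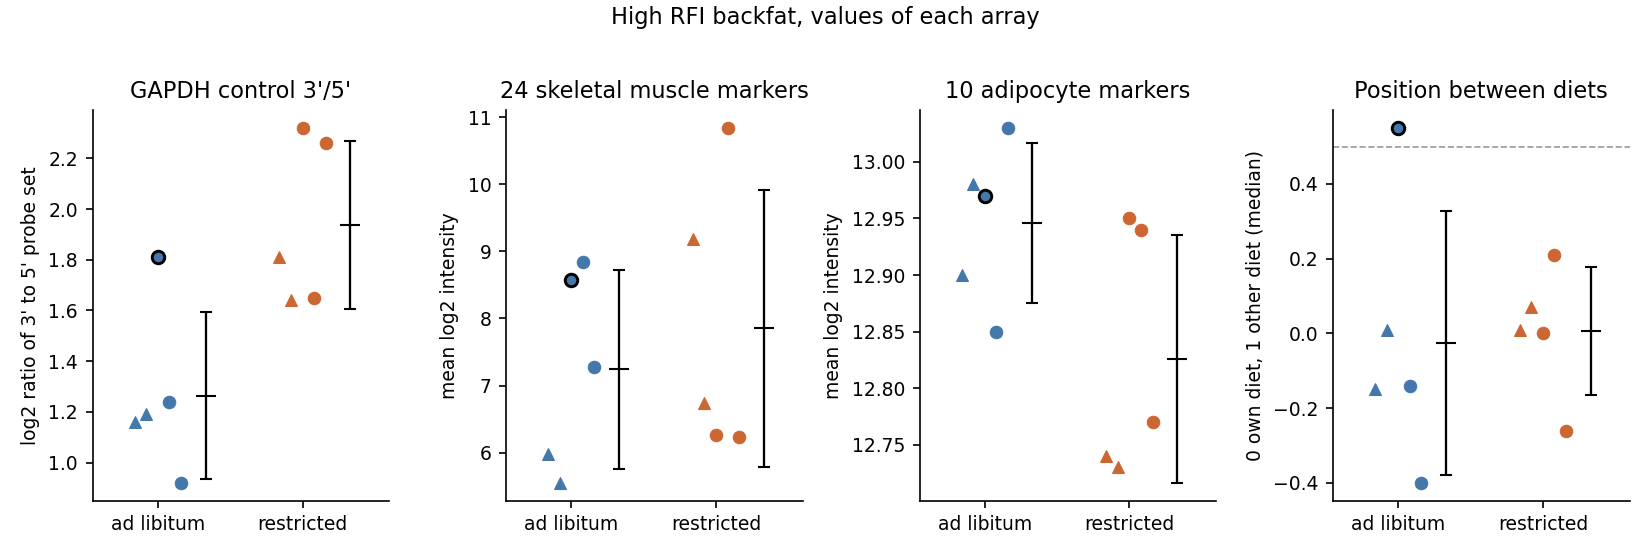
Log2 3'/5' ratio of the GAPDH control, mean log2 intensity of 24 skeletal muscle and of 10 adipocyte markers, and median position between the diets over the low RFI calls (0 is the mean of the other pigs of the same diet, 1 that of the other diet), for each high RFI backfat array. Triangles are arrays numbered 1 and 2, circles those numbered 3 to 5, the black ring is ad libitum pig 3, and bars are mean ± SD (n = 5). The ringed pig alone lies past the midpoint of 0.5, and its GAPDH ratio of 1.81 lies among the restricted pigs.

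Restriction changed 1398 of 15498 probe sets tested (9.02%; limma, Benjamini-Hochberg adjusted p under 0.05), of which 693 (4.47%) were higher and 705 (4.55%) lower. Decreases were the larger changes: 178 of the lower and 113 of the higher probe sets changed by more than 2-fold. Among all probe sets tested, 1125 (7.26%) did not overlap between the 5 restricted and the 5 ad libitum pigs, 631 higher and 494 lower, and 760 of these were among the 1398. A gene symbol was given for 755 of the changed probe sets, which stand for 679 genes, while 629 were unnamed and 14 carried several symbols. The median change over all probe sets was 0.0785.

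The number of calls depended on single pigs. Without ad libitum pig 3 it rose to 2239 (1208 higher, 1031 lower), and without ad libitum pig 1, 4 or 5 or restricted pig 5 it fell to 892, 834, 757 or 832. With both control ratios, of GAPDH and actin, in the model, 440 probe sets were called (174 higher, 266 lower). The fit of the arrays numbered 1 and 2 called 28 probe sets and that of the arrays numbered 3 to 5 called 59.

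**Figure D2:**
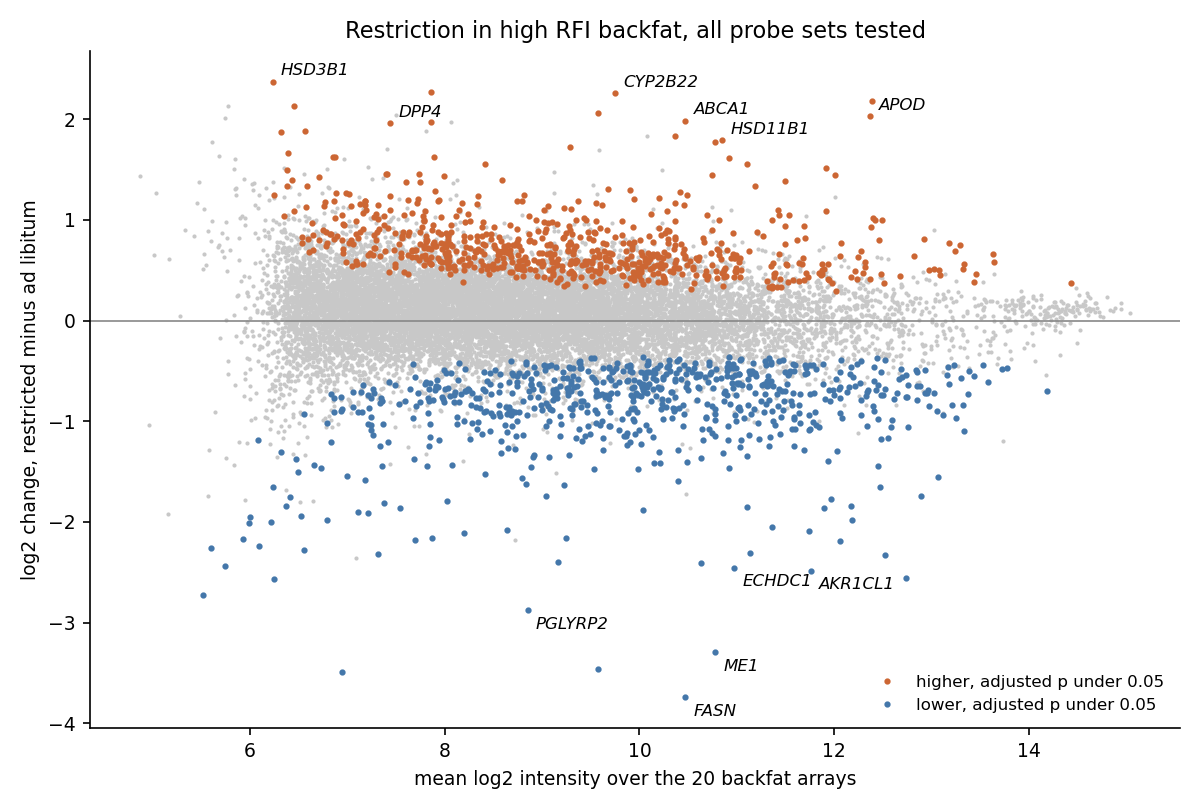
Log2 change of each of the 15498 probe sets tested, restricted minus ad libitum, against its mean log2 intensity over the 20 backfat arrays. Orange points are the 693 higher and blue points the 705 lower probe sets at an adjusted p under 0.05, and grey points are the rest. The largest named decreases are FASN (-3.74) and ME1 (-3.29), and the largest named increases HSD3B1 (2.37) and CYP2B22 (2.26).

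Transcripts of fatty acid synthesis fell in the restricted pigs. Of 23 genes listed for this pathway and its supply of citrate and NADPH, 17 were on the array, 15 were tested, 10 fell and 0 rose, with a median change of -0.90. When each gene stood for its brightest probe set, 7.15% of all 5552 genes tested fell and 3.84% rose, with a median change of 0.0149. The count of lowered genes in this list was 9 to 11 when each high RFI pig was left out in turn and 8 with the control ratios as covariates. The median was -0.94 in the arrays numbered 1 and 2 and -0.86 in those numbered 3 to 5.

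FASN, the fatty acid synthase, had log2 intensities of 13.96, 14.18, 13.63, 14.17 and 14.47 in ad libitum pigs 1 to 5 and of 12.04, 11.5, 11.56, 12.87 and 9.69 in restricted pigs 1 to 5. The diets did not overlap, and restricted pig 5 was the lowest. The change was -2.55 ± 0.377 (SE), a 5.87-fold lower intensity (adjusted p = 0.000571). FASN had 4 probe sets tested, with changes of -2.55, -3.74, -3.46 and -1.5, and each fell.

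ME1 is the malic enzyme that makes NADPH from malate. It was at 13.92, 13.9, 12.59, 14.05 and 14.33 ad libitum and at 11.81, 11.77, 11.14, 11.84 and 10.58 under restriction. The lowest ad libitum value was that of pig 3, and it was still above the restricted pigs. ME1 fell by 2.33 on the log2 scale (SE 0.304, 5.03-fold, adjusted p = 0.000174) on this probe set and changed by -3.29 on its other one.

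SLC25A1, the carrier that exports citrate from mitochondria, was at 13.23, 13.02, 12.46, 13.59 and 13.47 ad libitum and at 10.52, 10.9, 11.2, 11.49 and 10.71 restricted. The groups were separated by a gap, and the change was -2.19 ± 0.285 (4.57-fold, adjusted p = 0.000174). ACSS2, which activates acetate to acetyl-CoA, was at 12.28, 12.21, 10.3, 12.73 and 12.76 ad libitum against 9.28, 9.86, 9.43, 10.34 and 9.33 restricted on the probe set with the larger change. Ad libitum pig 3 fell just below the highest restricted pig here, and the change was -2.41 ± 0.381 (5.32-fold, adjusted p = 0.00103), against -1.85 on the brighter probe set.

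ACACA, the acetyl-CoA carboxylase that makes malonyl-CoA, was at 7.99, 8.96, 7.43, 9.28 and 9.46 ad libitum and at 5.4, 7.22, 7.49, 7.22 and 6.46 restricted. Ad libitum pig 3 lay below restricted pig 3, so the diets overlapped by this animal, and the change was -1.86 ± 0.413 (adjusted p = 0.00852). The NADPH and pentose phosphate enzymes fell by less: PGD changed by -1.29, TKT by -0.90, TALDO1 by -0.84 and the cytosolic isocitrate dehydrogenase IDH1 by -0.74 (adjusted p 0.00162 to 0.0129). ELOVL6, which lengthens palmitate, fell on its 4 probe sets, with changes of -0.70 on the brightest and of -1.66, -1.98 and -1.84 on the others. The call on the brightest was lost in 7 of the 10 fits that left out a high RFI pig (adjusted p up to 0.0864), while the probe set at -1.98 passed in each of them.

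SCD, the stearoyl-CoA desaturase, did not pass the test. It was at 14.48, 14.66, 14.23, 14.31 and 14.69 ad libitum and at 14.09, 13.63, 13.7, 14.35 and 10.6 restricted. Restricted pig 5 lay far below the other pigs, and the change of -1.20 ± 0.507 (adjusted p = 0.143) ranged from -1.47 to -0.53 when each high RFI pig was left out. SREBF1, the factor that drives lipogenic genes, had a change of 0.04 (adjusted p = 0.959), with 6.71 to 7.55 ad libitum and 6.44 to 7.6 restricted.

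ECHDC1, which removes ethylmalonyl-CoA, a side product of acetyl-CoA carboxylase, was among the largest decreases. It was at 12.71, 12.47, 11.04, 12.31 and 12.67 ad libitum and at 9.78, 10.05, 9.66, 9.93 and 9.52 restricted. The groups did not overlap, and the change was -2.45 ± 0.26 (5.48-fold, adjusted p = 6.11e-05).

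**Figure D3:**
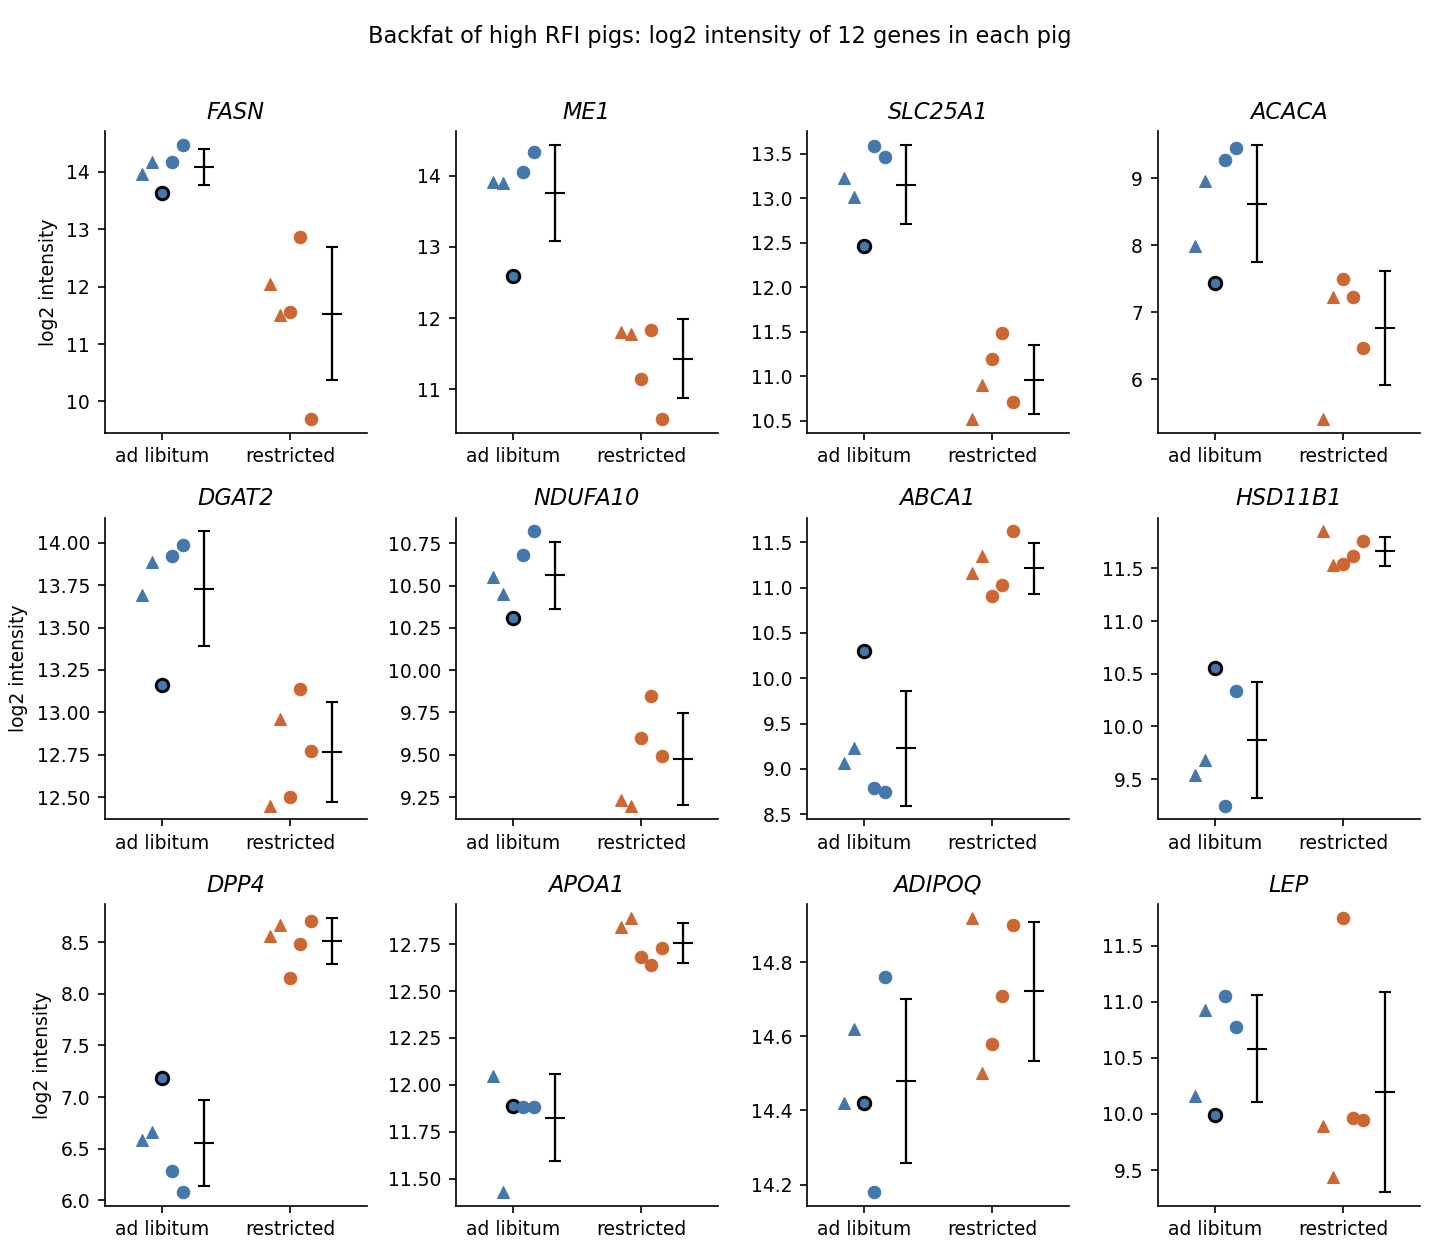
Log2 intensity of 12 genes, each by its brightest probe set, in the 5 ad libitum and 5 restricted high RFI pigs. Triangles are pigs numbered 1 and 2, circles those numbered 3 to 5, the black ring is ad libitum pig 3, and bars are mean ± SD. FASN, ME1, SLC25A1, DGAT2 and NDUFA10 were lower and ABCA1, HSD11B1, DPP4 and APOA1 higher without overlap, ACACA was lower with overlap, and ADIPOQ and LEP overlapped without passing the test.

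In triglyceride synthesis 2 of 14 tested genes fell and 1 rose (median -0.37). DGAT2, the acyltransferase of the last step, was at 13.69, 13.89, 13.16, 13.92 and 13.99 ad libitum and at 12.45, 12.96, 12.5, 13.14 and 12.77 restricted. The lowest ad libitum pig, number 3, was just above the highest restricted pig, and the change was -0.96 ± 0.203 (1.95-fold, adjusted p = 0.00616). The acyl-CoA synthetases ACSL1 (-0.55, adjusted p = 0.0295) and ACSL5 (0.53, adjusted p = 0.0406) passed in opposite directions, and each lost its call in 6 of the 10 fits that left out a pig (adjusted p up to 0.0903 and 0.102). Without ad libitum pig 3 the list had 3 lower and 2 higher genes.

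Among genes of lipolysis and the lipid droplet, 1 of 12 tested passed (median -0.01), a share near the 7.15% of all genes that fell. LIPE, the hormone-sensitive lipase, was at 12.46 to 13.29 ad libitum and 12.03 to 13.03 restricted, with a change of -0.11 (95% interval -0.70 to 0.48, adjusted p = 0.857). PNPLA2, the adipose triglyceride lipase, had a change of 0.20 (95% interval -0.25 to 0.65, adjusted p = 0.627). The gene that passed was PNPLA3, a lipase relative that follows lipogenic genes, at 9.46, 11.05, 7.41, 10.05 and 9.59 ad libitum and 7.33, 7.04, 8.58, 8.28 and 7.38 restricted. Its change was -1.79 ± 0.54 (adjusted p = 0.042). The diets overlapped, and the call was lost in 7 of the 10 fits that left out a pig, with an adjusted p of up to 0.114.

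For fatty acid uptake, 0 of 13 tested genes passed (3 at an unadjusted p under 0.05; median -0.00), counting each gene by its brightest probe set. LPL, the lipoprotein lipase that frees fatty acids from circulating triglyceride, was at 14.15, 14.23, 13.95, 13.88 and 13.8 ad libitum and at 13.93, 13.42, 13.5, 13.73 and 13.51 restricted. The diets overlapped, and the change was -0.38 ± 0.127 (adjusted p = 0.0602), while the dimmer probe set of LPL fell by 0.93 (adjusted p = 0.00249).

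Mitochondrial transcripts fell across several lists. In complex I, the first enzyme of the respiratory chain, 23 of 33 tested genes fell and 0 rose (median -0.69), and the other 10 also had negative changes (all 33 lay between -1.09 and -0.20). In complexes II to IV with cytochrome c it was 10 of 14 (median -0.68), in ATP synthase and the adenine nucleotide carriers 10 of 21 (median -0.52), and in the TCA cycle with pyruvate entry 15 of 28 (median -0.53), each with 0 genes that rose. The TCA and complex II to IV lists share the 4 subunit genes of succinate dehydrogenase.

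NDUFA10, a complex I subunit, was at 10.55, 10.45, 10.31, 10.68 and 10.82 ad libitum and at 9.23, 9.2, 9.6, 9.85 and 9.49 restricted. The groups did not overlap, and the change was -1.09 ± 0.143 (2.12-fold, adjusted p = 0.000174). NDUFAB1, the mitochondrial acyl carrier protein, changed by -1.06 and NDUFB8 by -0.80 (adjusted p 0.00142 and 0.00285). SDHC, a membrane subunit of succinate dehydrogenase, was at 12.42, 12.32, 11.46, 12.33 and 12.17 ad libitum and 11.21, 11.43, 10.94, 11.37 and 10.87 restricted. Its change was -0.98 ± 0.156 (adjusted p = 0.00106), with ad libitum pig 3 at 11.46 next to restricted pig 2 at 11.43.

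At the entry of pyruvate, PDHB, a subunit of pyruvate dehydrogenase, was at 13.59, 13.33, 12.23, 13.45 and 13.54 ad libitum and 12.17, 11.85, 11.53, 12.03 and 11.35 restricted. PDHB fell by 1.44 on the log2 scale (SE 0.218, 2.71-fold, adjusted p = 0.000709), and ad libitum pig 3 was next to restricted pig 1. MPC2, a subunit of the mitochondrial pyruvate carrier, changed by -1.10, PDHA1 by -0.99 and DLAT by -1.0 (adjusted p 0.00162 to 0.00673). PDK4, the kinase that switches pyruvate dehydrogenase off, did not pass (0.26, adjusted p = 0.72), and its changes were 1.14 in the arrays numbered 1 and 2 and -0.33 in those numbered 3 to 5. ATP5B, the catalytic subunit of ATP synthase, changed by -0.72 and the outer membrane channel VDAC1 by -0.85 (adjusted p 0.00189 and 0.00193).

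The mitochondrial counts followed the pigs and settings more than the medians did. Without ad libitum pig 3, complex I had 29 genes lower and the TCA list 19, and with ad libitum pig 4 left out they had 16 and 9. With ad libitum pig 5 left out, 4 genes of the ATP synthase list fell in place of 10, and 5 without restricted pig 5. The TCA list had 9 lower genes without ad libitum pig 5 or restricted pig 5, and 10 without restricted pig 1. With these control ratios in the model, 4 genes of complex I, 4 of complexes II to IV, 2 of ATP synthase and 6 of the TCA list fell, with medians of -0.50, -0.52, -0.39 and -0.48. The arrays numbered 1 and 2 gave medians of -0.74, -0.71, -0.46 and -0.45 for these 4 lists, and those numbered 3 to 5 gave -0.61, -0.65, -0.47 and -0.49, with at most 1 call in any of them.

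Fatty acid oxidation moved in the same direction as synthesis. Of 27 tested genes 8 fell and 0 rose (median -0.40). ECI1, an enoyl-CoA isomerase for unsaturated fatty acids, was at 12.86, 12.79, 12.07, 12.71 and 12.99 ad libitum and at 11.2, 11.44, 11.34, 11.63 and 11.32 restricted. The groups did not overlap, and the change was -1.30 ± 0.154 (2.46-fold, adjusted p = 9.4e-05). AMACR, a racemase of branched fatty acids, changed by -1.17 and ACADL, the long-chain acyl-CoA dehydrogenase, by -0.80 (adjusted p 0.000174 and 0.00189). CPT1A, which admits fatty acids to mitochondria, did not pass (0.44, adjusted p = 0.197). The list had 12 lower genes and 1 higher without ad libitum pig 3, and 5 lower without ad libitum pig 1, ad libitum pig 5 or restricted pig 5.

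Of 57 tested genes of mitochondrial ribosomal proteins 8 fell (median -0.27), among them MRPS28 (-1.11), MRPS15 (-0.61) and MRPS30 (-0.59). Mitochondrial import and chaperones had 5 of 29 lower (median -0.33), including the chaperonin HSPE1 (-0.61, adjusted p = 0.0129) and the import channel subunit TIMM17B (-0.67, adjusted p = 0.00735). No gene of either list rose. With the control ratios in the model 1 ribosomal and 2 import genes fell, with medians of -0.21 and -0.31. Without ad libitum pig 3 the counts were 18 and 10, and they were 4 and 2 without ad libitum pig 1, 4 and 3 without ad libitum pig 4 or 5, 5 and 3 without restricted pig 5, and 5 and 4 without restricted pig 2. The import list also had 3 without restricted pig 3. Of 58 cytosolic ribosomal proteins 0 passed (2 at an unadjusted p under 0.05), with changes from -0.11 to 0.30. Of 39 translation factors 3 rose (median 0.08), with EIF4B (0.64, adjusted p = 0.00401) and EIF3E (0.51, adjusted p = 0.0129) first. The third, EIF3M (0.49, adjusted p = 0.0444), lost its call in 8 of the 10 fits that left out a pig (adjusted p up to 0.117), and the list's count ran from 2 to 5 over them, with 5 without restricted pig 3.

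Glucose use and sterol synthesis contributed further decreases. In glycolysis and glucose entry 4 of 24 tested genes fell and 0 rose (median -0.30). SLC2A5, the fructose transporter, was at 10.61, 10.85, 9.0, 11.46 and 11.63 ad libitum and at 8.23, 8.57, 9.04, 8.83 and 6.88 restricted. The value of ad libitum pig 3 was just below that of restricted pig 3, and the change was -2.40 ± 0.436 (5.28-fold, adjusted p = 0.00243). HK1 (hexokinase) changed by -1.18, PGK1 by -0.98 and ENO1 (enolase) by -0.89 (adjusted p 0.0041, 0.00815 and 0.00396). SLC2A4, the insulin-responsive glucose transporter, did not pass (-0.81, adjusted p = 0.271). The count was 6 without ad libitum pig 3.

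In cholesterol synthesis 5 of 15 tested genes fell and 0 rose (median -0.52). MSMO1, the sterol methyl oxidase, changed by -1.28, CYP51, the sterol demethylase, by -1.15, and FDPS, which makes farnesyl diphosphate, by -1.12 (adjusted p 0.00352, 0.0041 and 0.0079). The dim second probe set of MSMO1 changed by -0.46 (adjusted p = 0.559). CYP51 was at 11.79, 11.91, 11.03, 11.68 and 11.53 ad libitum and 10.39, 10.6, 10.55, 10.73 and 9.92 restricted, without overlap. The median was -0.86 in the arrays numbered 1 and 2 and -0.30 in those numbered 3 to 5. With the control ratios in the model 2 genes fell.

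Of 30 tested genes of amino acid metabolism 12 fell and 2 rose (median -0.57). BCKDHB, a subunit of the branched-chain keto acid dehydrogenase, was at 11.93, 11.64, 10.58, 11.43 and 12.11 ad libitum and 10.12, 10.11, 9.82, 10.6 and 10.48 restricted. The third ad libitum pig was within the restricted range, and the change was -1.31 ± 0.223 (2.48-fold, adjusted p = 0.00162). ACAD8, which acts on a valine product, changed by -1.12, while MAT2A, which makes S-adenosylmethionine, rose by 0.62 (adjusted p 0.00302 and 0.00249). The count of lower genes was 8 without ad libitum pig 1 or 5, and 4 with the control ratios as covariates. Of 33 antioxidant and redox enzymes 10 fell and 0 rose (median -0.36), among them the peroxiredoxins PRDX1 (-0.93) and PRDX2 (-0.49) and the methionine sulfoxide reductase MSRA (-0.80). That count was 5 without ad libitum pig 1 or 2, 6 without ad libitum pig 5 or restricted pig 5, and 2 with the control ratios. The dimmer probe set of MSRA changed by -0.34 (adjusted p = 0.212).

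Of 7 tested genes listed under glyceroneogenesis and gluconeogenesis 3 were lower, GOT1 (-0.84), GOT2 (-0.68) and ALAS1 (-0.67), with adjusted p from 0.00434 to 0.0138. ALAS1 is an enzyme of heme synthesis and not of this pathway. Its other probe sets changed by -1.03 and -0.28 (adjusted p 0.000174 and 0.287). GOT1 and GOT2 are aspartate aminotransferases and also belong to the amino acid list. PCK1, the phosphoenolpyruvate carboxykinase that feeds glycerol synthesis in fat, did not pass (-0.06, adjusted p = 0.971) and ranged from 8.28 to 12.38 in the ad libitum pigs. Of 37 tested proteasome genes 5 fell (median -0.22), a count of 13 without ad libitum pig 3 and of 0 with the control ratios as covariates. It was 2 without ad libitum pig 1 or 5 and 3 without ad libitum pig 4 or restricted pig 2, 3 or 5.

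Genes of lipid export were among the largest increases. Of 15 tested genes of cholesterol efflux and lipid carriers 4 rose and 2 fell (median 0.16). ABCA1, the pump that passes cholesterol to apolipoproteins, was at 9.07, 9.23, 10.3, 8.79 and 8.75 ad libitum and at 11.16, 11.35, 10.91, 11.03 and 11.62 restricted. The groups did not overlap, although ad libitum pig 3 was the highest of its diet, and the change was 1.99 ± 0.293 (3.96-fold, adjusted p = 0.000571).

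MYLIP, the ubiquitin ligase that degrades the LDL receptor, rose from 9.52 to 10.96 ad libitum to 11.51 to 12.1 restricted, a change of 1.34 ± 0.225 (adjusted p = 0.00162). APOD, a lipocalin that carries small lipids, was at 11.04, 10.82, 12.76, 11.08 and 11.14 ad libitum and 12.48, 13.64, 13.4, 13.31 and 14.15 restricted. Only ad libitum pig 3 overlapped the restricted pigs, and the change was 2.03 ± 0.457 (4.08-fold, adjusted p = 0.00938). APOA1, the main protein of high-density lipoprotein, was at 12.05, 11.43, 11.89, 11.88 and 11.88 ad libitum and 12.84, 12.89, 12.68, 12.64 and 12.73 restricted. This gene separated the diets without overlap, pig 3 included, with a change of 0.93 ± 0.174 (1.90-fold, adjusted p = 0.00296). The number of genes that rose was 4 in each fit that left out a high RFI pig and 4 with the control ratios as covariates.

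The 2 genes that fell in this list were STAR and TSPO, both known for moving cholesterol into mitochondria. STAR changed by -2.16 (adjusted p = 0.00369) on its brighter probe set and by -2.17 on a dim one. TSPO changed by -0.72 (adjusted p = 0.0299), a call lost in 7 of the 10 fits that left out a pig (adjusted p up to 0.0782).

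Steroid metabolism moved in both directions. HSD11B1, which regenerates active cortisol inside the cell, was at 9.54, 9.68, 10.55, 9.25 and 10.34 ad libitum and at 11.85, 11.53, 11.54, 11.62 and 11.76 restricted. The diets did not overlap, and the change was 1.79 ± 0.282 (3.46-fold, adjusted p = 0.00101). It led the list of glucocorticoid activation and response, where 3 of 21 tested genes rose and 0 fell (median 0.31). NFKBIA, the inhibitor of NF-kappa B, changed by 0.84 (adjusted p = 0.013). The call on CRISPLD2 (0.70, adjusted p = 0.0299) was lost without ad libitum pig 1 or 4 or restricted pig 2 or 5. FKBP5, a classical target of the glucocorticoid receptor, did not pass (0.67, adjusted p = 0.176): it was at 9.97 to 10.76 ad libitum and at 10.53, 11.53, 10.58, 10.15 and 12.14 restricted.

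Among 24 tested genes of steroid and xenobiotic metabolism 2 rose and 6 fell (median -0.12), and 1 rose without ad libitum pig 1, 4 or 5 or restricted pig 2, 3 or 5. With the control ratios in the model 1 rose and 3 fell. CYP2B22, a cytochrome P450 that oxidises drugs and steroids, was at 7.81, 8.89, 10.54, 8.01 and 8.75 ad libitum and at 10.32, 10.87, 11.13, 10.59 and 12.4 restricted. The overlap came from ad libitum pig 3 alone, which was above restricted pig 1, and the change was 2.26 ± 0.455 (4.79-fold, adjusted p = 0.00473). AKR1CL1, an aldo-keto reductase, was at 13.56, 13.21, 12.22, 13.35 and 13.42 ad libitum and at 11.19, 9.87, 10.63, 10.75 and 10.91 restricted. It showed no overlap, and the change was -2.48 ± 0.27 (5.59-fold, adjusted p = 6.11e-05). Its dimmer probe sets changed by -1.33 and -1.08 (adjusted p = 0.0205 and 0.122).

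HSD17B12, which takes part in the lengthening of long-chain fatty acids, changed by -1.17 (adjusted p = 0.000426). HSD3B1, which forms progesterone and other steroids, had the largest named increase on a dim probe set, at 4.46, 4.91, 7.91, 4.77 and 3.99 ad libitum and 6.52, 7.56, 7.96, 7.56 and 8.29 restricted. Its change was 2.37 ± 0.74 (adjusted p = 0.0486), against 1.44 (adjusted p = 0.0365) on the brighter probe set, and on both the call was lost in 8 of the 10 fits that left out a pig (adjusted p up to 0.133 and 0.0923). In ad libitum pig 3 it was near the top of the restricted range.

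Of 26 tested genes of the acute phase and complement 5 rose and 0 fell (median 0.57). The 5 were C1R, C1S, C2, CFD and CLU, while the complement genes C1QA (-0.53), C1QC (-0.55) and C9 (-0.36) had negative changes that did not pass (adjusted p 0.517, 0.386 and 0.643). C1S, the serine protease of the first complement complex, was at 12.69, 12.87, 13.07, 12.94 and 12.51 ad libitum and 13.74, 13.5, 13.27, 13.66 and 13.66 restricted. No value overlapped, and the change was 0.75 ± 0.113 (1.68-fold, adjusted p = 0.000698). CLU (clusterin) rose by 1.45 ± 0.251 (adjusted p = 0.00176), from 9.43 to 10.86 ad libitum to 11.21 to 11.66 restricted. CFD, the complement factor D that adipocytes secrete as adipsin, rose by 0.58 (adjusted p = 0.0122). The mean of 10 hepatocyte markers was 7.74 to 8.56 ad libitum and 7.98 to 9.79 restricted, and of these markers APOA1 was the only one to pass. The part of liver-type transcripts in the list's median was not tested. The list had 8 higher genes without restricted pig 1, 7 without ad libitum pig 3 and 3 with the control ratios as covariates. The call on C2 (1.04, adjusted p = 0.0296) was lost in 5 of the 10 fits that left out a pig (adjusted p up to 0.0912).

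PGLYRP2, a peptidoglycan recognition protein with amidase activity, fell instead. It was at 11.09, 8.97, 9.62, 10.87 and 11.23 ad libitum and at 7.68, 7.56, 7.59, 7.81 and 6.77 restricted, which do not overlap. The change was -2.88 ± 0.36 (7.35-fold, adjusted p = 0.000174). Of 30 tested cytokines, chemokines and interferon response genes 0 passed (2 at an unadjusted p under 0.05; changes from -0.51 to 0.56).

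Antigen presentation had 1 of 18 tested genes higher and 1 lower, shares near the 3.84% and 7.15% of all genes. SLA-DOA changed by 0.91 (adjusted p = 0.0318) and SLA-DMA by -0.53 (adjusted p = 0.019), both class II chaperone subunits. The first call was lost in 7 of the 10 fits that left out a pig and the second in 3 (adjusted p up to 0.0935 and 0.0536). The dimmer probe set of SLA-DMA changed the other way, by 0.24 (adjusted p = 0.281). No macrophage marker of 9 and no lymphocyte marker of 5 passed by its brightest probe set (0 and 1 at an unadjusted p under 0.05). The dimmer probe set of the T cell receptor chain CD247 fell by 0.66 (adjusted p = 0.0155), against -0.50 (adjusted p = 0.062) on the brighter one, and 1 lymphocyte marker was lower without ad libitum pig 3, without restricted pig 4, and in the fit of the high RFI arrays alone. For macrophages, the mean of the markers was 8.91 to 9.31 ad libitum and 8.24 to 9.58 restricted.

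Of 44 tested genes of the extracellular matrix 5 rose and 4 fell (median 0.09), and the share that fell is close to the 7.15% of all genes. With the control ratios in the model 1 rose and 3 fell. CTSK, the collagen-degrading cathepsin K, was at 12.92, 12.99, 12.79, 12.7 and 12.68 ad libitum and at 13.71, 13.86, 13.46, 13.47 and 13.46 restricted. The spread within each diet was small, and the change was 0.77 ± 0.103 (1.71-fold, adjusted p = 0.000203). The small proteoglycan LUM (lumican) changed by -1.06, DPT (dermatopontin) by -1.0 and the basement membrane collagen COL15A1 by -0.76 (adjusted p 0.00606, 0.00369 and 0.00209). CILP, a matrix protein first known from cartilage and no member of this list, was at 10.15, 10.76, 11.24, 9.12 and 9.99 ad libitum and 11.56, 11.79, 11.47, 11.85 and 12.4 restricted, with a change of 1.56 ± 0.315 (2.95-fold, adjusted p = 0.00487). Without ad libitum pig 1, 2 matrix genes rose and 3 fell, and 2 rose without restricted pig 5. With ad libitum pig 2, 4 or 5 or restricted pig 2 or 3 left out, 3 rose.

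DPP4, a cell surface peptidase found on preadipocytes, was at 6.58, 6.66, 7.18, 6.28 and 6.08 ad libitum and at 8.56, 8.67, 8.15, 8.48 and 8.71 restricted. The lowest restricted pig was well above the highest ad libitum pig, and the change was 1.96 ± 0.278 (3.89-fold, adjusted p = 0.000426). It is also 1 of 11 tested fibroblast and preadipocyte markers, of which 2 rose and 2 fell, and whose mean was 10.91 to 11.12 ad libitum and 10.88 to 11.21 restricted.

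GATA3, a factor known to hold preadipocytes back from maturing, was the 1 gene of 15 adipogenic transcription factors to pass (1.46, adjusted p = 0.0344), where 3.84% of all genes rose. Its call was lost in 6 of the 10 fits that left out a pig (adjusted p up to 0.0998), and its other probe set changed by 0.60 (adjusted p = 0.206). Without ad libitum pig 3, 3 genes of this list rose, and 0 with the control ratios in the model. PPARG, the master regulator of the adipocyte, changed by -0.41 (95% interval -0.80 to -0.01, adjusted p = 0.185). Of the other largest increases, SLC4A4, a sodium bicarbonate cotransporter, changed by 1.5 (adjusted p = 0.0233) and FUCA2, a fucosidase, by 1.55 (adjusted p = 0.0178). The first call was lost without ad libitum pig 1, 4 or 5 or restricted pig 1 or 4 and the second without ad libitum pig 5 or restricted pig 5 (adjusted p up to 0.0651 and 0.058).

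Of 25 tested cell cycle genes 7 fell and 1 rose (median -0.25), and most of these calls depended on single pigs. RRM2, the small subunit of ribonucleotide reductase, was at 7.16, 6.11, 5.68, 6.54 and 6.81 ad libitum and at 5.43, 4.49, 0.87, 5.32 and 4.9 restricted. The diets did not overlap, restricted pig 3 was far below the rest at a very dim reading, and the change was -2.26 ± 0.676 (adjusted p = 0.0406). Without that pig the change was -1.42 (adjusted p = 0.0621). CCNB1 (cyclin B1) changed by -2.24 (adjusted p = 0.048) and TOP2A, a topoisomerase of dividing cells, by -1.55 (adjusted p = 0.0299). These calls were lost in 7, 8 and 5 of the 10 fits that left out a pig. The cell cycle inhibitor CDKN1A (-1.19, adjusted p = 0.00863) and the checkpoint gene MAD2L1 (-1.03, adjusted p = 0.00296) passed in each of these fits. The list's count of lower genes was between 2 and 8 over them, with 2 without ad libitum pig 1 or 5, 3 without ad libitum pig 4 or restricted pig 2, 4 or 5, and 4 without ad libitum pig 2. With the control ratios as covariates it was 2.

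Most adipokines and signalling genes did not pass the test, and some of their intervals are wide. LEP (leptin) was at 10.16, 10.93, 9.99, 11.05 and 10.78 ad libitum and at 9.89, 9.44, 11.75, 9.96 and 9.95 restricted. Restricted pig 3 was the highest of the 10 pigs, and the change was -0.38 (95% interval -1.58 to 0.81, adjusted p = 0.734). ADIPOQ changed by 0.24 (95% interval -0.04 to 0.52, adjusted p = 0.275). CFD was the 1 gene of 11 adipokines to pass, with 2 without ad libitum pig 3, where 3.84% of all genes rose in the main fit. In insulin and growth factor signalling 1 of 23 tested genes passed, a share below the 7.15% of all genes that fell. It was the kinase AKT2 (-0.72, adjusted p = 0.0152), and that call was lost without ad libitum pig 4 (adjusted p = 0.0507). In this list 2 genes rose without ad libitum pig 3. IGF1 (-0.25, adjusted p = 0.578) and IGFBP2 (-0.44, 95% interval -2.53 to 1.65, adjusted p = 0.835) did not pass, and LPIN1, a phosphatidate phosphatase, did not either (-0.17, adjusted p = 0.599). The other probe set of LPIN1, nearly as bright, changed by -0.84 (adjusted p = 0.0642) and that of IGF1 by -0.77 (adjusted p = 0.194).

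Of 40 autophagy and lysosome genes 1 rose, the galactosidase GLB1 (0.60, adjusted p = 0.00703), and 3 fell. Of these the proton pump subunit ATP6V1A (-0.69, adjusted p = 0.0103) kept its call in each fit that left out a pig. Its dimmer probe set changed by -0.43 (adjusted p = 0.126). The lower count was 5 without ad libitum pig 3, 1 without ad libitum pig 1, 4 or 5 or restricted pig 1, 2 or 4, and 0 with the control ratios in the model. Of 27 genes of the endoplasmic reticulum 2 fell, with DERL1, which helps to remove misfolded proteins, at -0.93 (adjusted p = 0.000488). The other, ERP29 (-0.40, adjusted p = 0.0425), lost its call in 8 of the 10 fits that left out a pig (adjusted p up to 0.103). In both lists the share that fell is close to the 7.15% of all genes, and the share that rose is below their 3.84%. None of 23 heat shock proteins (3 at an unadjusted p under 0.05) and none of 7 clock genes (1 at an unadjusted p under 0.05) passed.

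**Figure D4:**
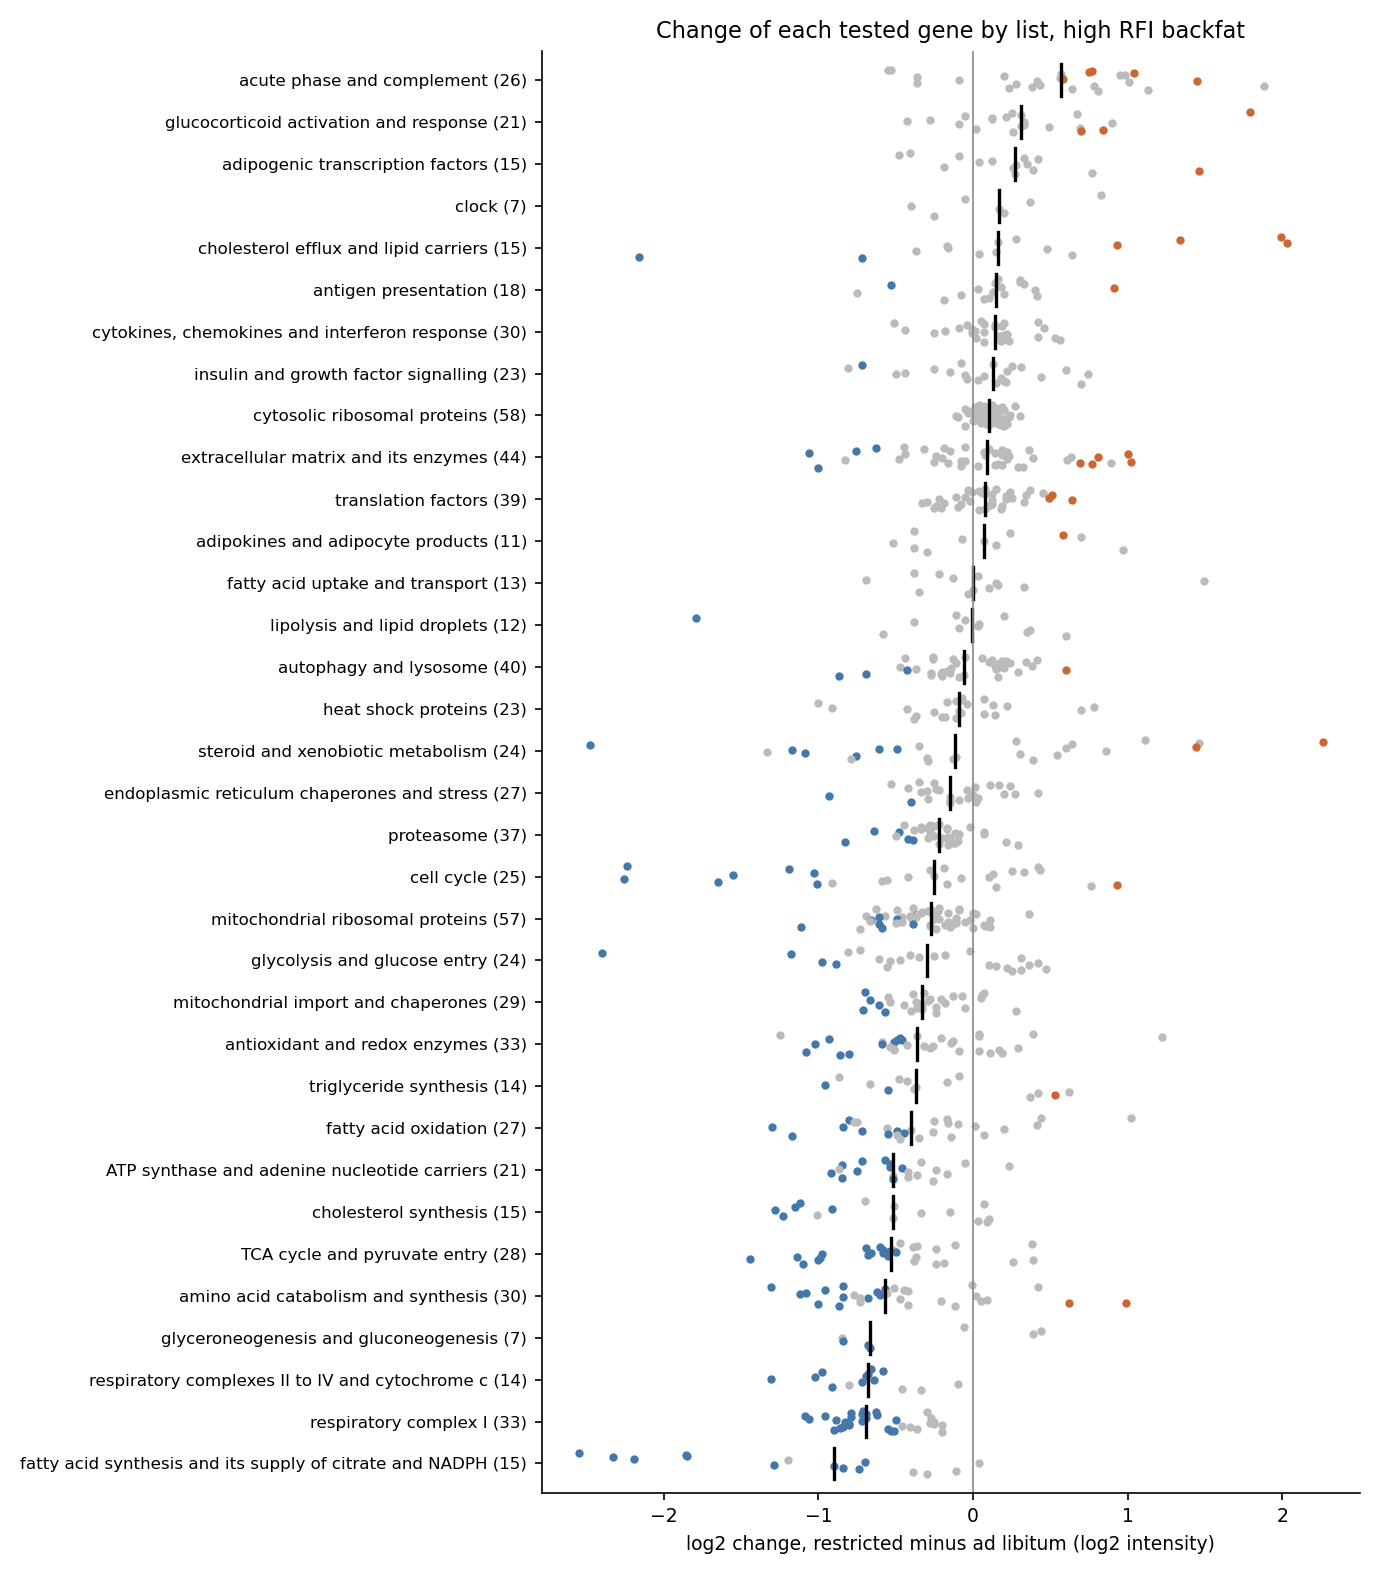
Log2 change of each tested gene, restricted minus ad libitum, in 34 gene lists ordered by their median (black bar), with the number of tested genes in brackets and each gene by its brightest probe set. Orange genes were higher and blue genes lower at an adjusted p under 0.05, and grey genes did not pass. The medians run from 0.57 for the acute phase and complement to -0.90 for fatty acid synthesis.

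The low RFI line was set beside the high RFI line to ask whether the 2 lines answered restriction differently. In low RFI backfat restriction changed 1426 probe sets (9.2%; 678 higher, 748 lower), with group means from pigs that the high RFI comparison does not share. The 2 comparisons do share the spread estimated for each probe set over all 20 backfat arrays, so their calls are not independent. Of the 1426, 824 were called in both lines in the same direction, which is 58.9% of the high RFI calls and 57.8% of the low RFI calls, and 0 in opposite directions. Of the 1398 high RFI calls, 1382 had the same sign in the low RFI pigs. The interaction, which tests the difference of the 2 responses, passed for 0 of 15498 probe sets (0.0%; 244 at an unadjusted p under 0.05, smallest adjusted p 0.514), and it passed for 1 in the fit of the arrays numbered 3 to 5. The 244 are fewer than chance alone gives on average at that threshold, and why was not tested.

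FASN on its brightest probe set was at 13.7, 13.83, 14.34, 14.47 and 14.41 in ad libitum and at 10.52, 11.53, 11.31, 11.62 and 10.92 in restricted low RFI pigs. Its change there was -2.97, and the low minus high difference was -0.42 (95% interval -1.53 to 0.69). ME1 differed by -0.64 (95% interval -1.53 to 0.26) and DPP4, which changed by 1.18 in the low line, by -0.78 (95% interval -1.60 to 0.04). The fatty acid synthesis list had 11 lower genes and a median of -1.32 in the low line, and complex I had 24 and -0.66. One low RFI array stood apart: the mean of 10 hepatocyte markers was 12.42 in low RFI restricted pig 5, against 7.6 to 8.88 in the other low RFI pigs, so no value of the acute phase and complement list is compared between lines.

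PTP4A2, a protein tyrosine phosphatase, had the smallest interaction p of the named genes. It was at 11.28, 11.17, 11.45, 11.13 and 11.19 in ad libitum and 12.28, 12.43, 12.26, 12.46 and 12.19 in restricted high RFI pigs, and at 11.64 to 12.33 and 11.76 to 12.29 in the low RFI pigs. The high RFI groups were separated and the low RFI groups overlapped. The change was 1.08 ± 0.128 (2.12-fold, adjusted p = 9.4e-05) in the high and 0.13 ± 0.128 in the low RFI pigs, a difference of -0.95 with an adjusted interaction p of 0.514 (unadjusted 3.32e-05). Its other probe sets changed by 0.07 and 0.19 in the high RFI pigs.

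The next 4 by interaction p did not pass either, with adjusted p of 1.0 each. SLA-DOA changed by 0.91 in the high and by -0.60 in the low RFI pigs, and SLC9A5, a sodium proton exchanger, by -1.23 and 1.30. TK2, the mitochondrial thymidine kinase, changed by -0.00 and 0.82, and TRMT61A, a transfer RNA methyltransferase subunit, by 0.08 and -1.85.

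**Figure D5:**
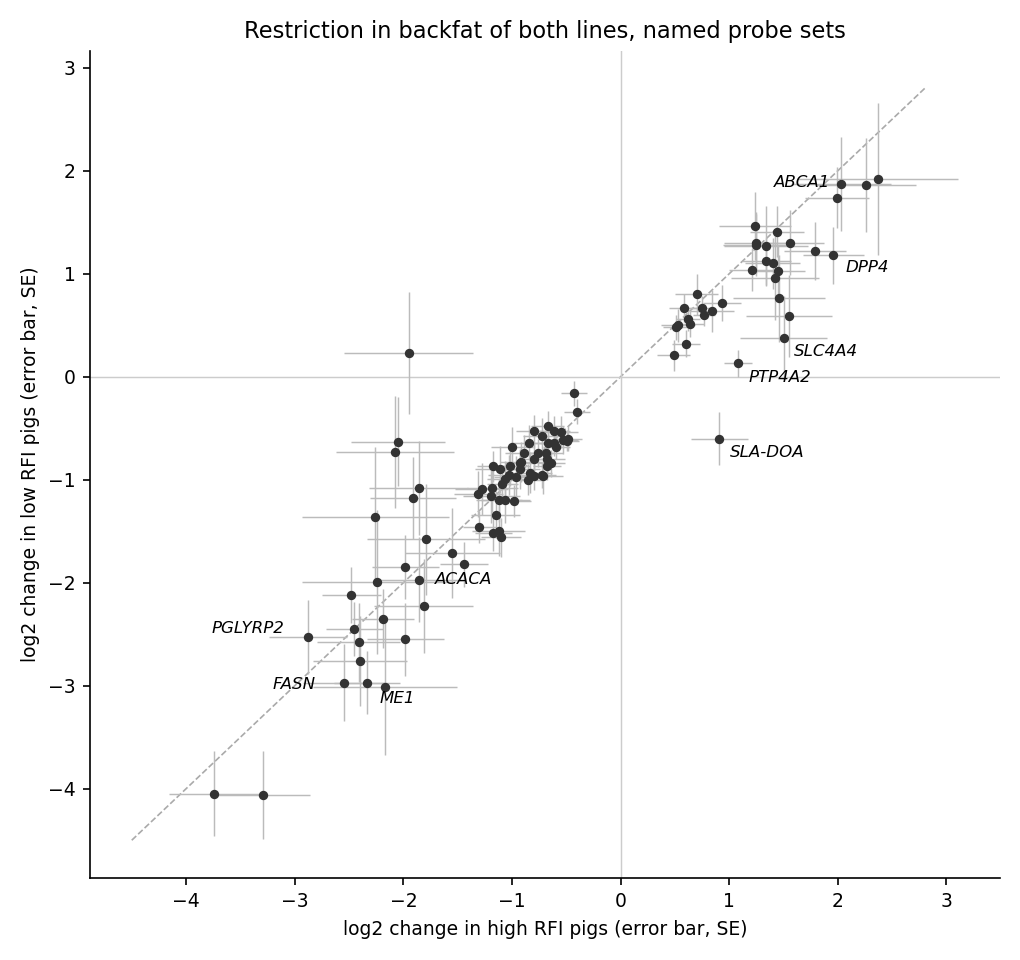
Log2 change with restriction in low RFI pigs against that in high RFI pigs, with SE, for the named probe sets called in the high RFI pigs. The dashed line marks equal change, and points were chosen by their change on the horizontal axis. PTP4A2 (1.08 and 0.13) and SLA-DOA (0.91 and -0.60) lie off it, and the interaction passed for 0 probe sets.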

How the data were processed

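RNA of each pig was hybridised to a 1-colour Affymetrix porcine array, per the labels' protocols. The authors deposited a linear intensity for every probe set, and affy and MAS5 are named for them in the submitters' processing notes, with no version or role given. With the highest and lowest 2% of values trimmed, the arrays' means were 500.09 to 500.15, so no further scaling was applied. Arrays give no counts, so their number (5 for each group) limits the precision.

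Intensities were log2-transformed with no offset, so differences of very dim probe sets are uncertain. Of 24123 probe sets, 124 controls were left out of the tests. Testing was limited to the 15498 probe sets that exceeded an array's 40th percentile on 5 or more of the 20 backfat arrays. One mean per group was fitted over both lines' 20 backfat arrays with limma 3.58.1 in R 4.3.3 (lmFit, eBayes with an intensity trend), without a replicate block, and p-values were adjusted by Benjamini-Hochberg over these probe sets (threshold 0.05). The fit was tested on simulated data. Control ratios were tested by exact permutation over the 252 arrangements of the diets. The authors' platform annotation gave exactly 1 symbol to 10069 probe sets, several to 198 and none to 13732. No reference sequences were used here.

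A gene in a list stood for its probe set with the highest mean over the 20 arrays. Named genes were the 10 largest increases and 10 largest decreases among calls with 1 symbol, 3 genes per pathway list (34 lists), taken by smallest p, 25 fixed metabolic genes (22 were tested; ACLY, IRS1 and PPARGC1A were not), the 5 genes with the smallest interaction p, and the 3 brightest genes of each of 11 marker lists, given in part as counts and ranges. Further list members named beside them, such as PGD, TKT, PDHA1 and TSPO, were chosen after their values were seen. The members, lists and rule were chosen with earlier results of these data known. List counts with pigs left out, covariates, the replicate block or array sets were added after seeing the data. The other alternatives were an intensity offset, quantile normalization, filters at the 60th percentile or none, no trend, blocks by number, a muscle covariate, the control ratios as covariates, subsets of arrays and each array left out.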

Additional observations from a re-analysis of the deposited data

Results flagged for a closer look

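In groups of 5 pigs, a value was examined further when its gap to the nearest pig was more than 0.71 of the group's range (Dixon's test at 95%). This held for 37 of 282 groups tested, and chance gives about 1 in 20.

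Ad libitum pig 3 had more of them than any other pig. It was below the other 4 ad libitum pigs for ACSS2 (10.3, the others 12.21 to 12.76), AKR1CL1 (12.22, the others 13.21 to 13.56), ECHDC1 (11.04, the others 12.31 to 12.71), ME1 on both probe sets (12.59 and 11), PDHB (12.23), SDHC (11.46), NDUFB8 (11.87), MRPS15 (10.56), MRPS28 (8.1), HSPE1 (13.46), GOT1 (9.53), GOT2 (11.96), MSRA (9.31), DERL1 (10.73) and SLA-DMA (10.48). It was above them for APOD (12.76, the others 10.82 to 11.14), HSD3B1 (7.91, the others 3.99 to 4.91) and the endothelial gene PECAM1 (12.88, the others 12.3 to 12.33). PECAM1 did not pass the test of diet.

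Restricted pig 5 was below its group for SCD (10.6, the others 13.63 to 14.35), the dimmer ME1 probe set (7.68), MPC2 (12.19) and PGLYRP2 (6.77), and above it for the pericyte gene RGS5 (11.76). Restricted pig 3 was above its group for LEP (11.75) and below it for RRM2 (0.87) and PDK4 (11.88). PDK4 was also low in ad libitum pig 2 (11.07), as were APOA1 (11.43) and GLA (8.93). The remaining values were ACTG2 at 11.78 and a log2 EF1a ratio of -0.06 in restricted pig 2, ATPIF1 at 11.57 in restricted pig 4, MAD2L1 at 7.94 in restricted pig 1, RGS5 at 11.03 in ad libitum pig 4, and SLC9A5 at 7.45 and TRIM29 at 4.25 in ad libitum pig 5.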

How the results depend on the processing

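Of 108 named probe sets called, 83 kept their call with each of the 10 high RFI pigs left out, 68 were called with both control ratios in the model, and 108 had the same sign in the arrays numbered 1 and 2 and in those numbered 3 to 5. No called change reversed its direction under any of the 32 alternatives. The GAPDH and actin ratios in the model gave 440 calls (174 higher, 266 lower) in place of 1398, only the arrays numbered 1 and 2 gave 28 (14 and 14), and only those numbered 3 to 5 gave 59 (24 and 35), with 1 interaction call. Fewer arrays enter the last 2 fits, and why the covariates lower the count was not tested beyond the values given. Leaving out 1 backfat array gave 757 to 2239 calls, 331 to 1208 higher and 426 to 1031 lower. The set of numbers 1 and 2 against 3 to 5 as a block gave 1995 calls, 1069 of them higher. With quantile normalization 43.6% of the calls were higher in place of 49.6%, and the median change of all probe sets was 0.02 in place of 0.08.

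With the replicate number as a block there were 2184 calls, 1191 of them higher. Deviations from the group means of same-numbered arrays correlated by 0.0582 to 0.239 over the 5 numbers. For 2 of 5 numbers the best match was their own. Ad libitum pigs 1 and 2 both correlated best with restricted pig 2, and pigs 3, 4 and 5 with restricted pigs 5, 4 and 4. Same-numbered pigs are therefore not taken as pairs, but each best match lay within numbers 1 and 2 or within 3 to 5. The main model has no block for these sets.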

Other observations

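The genes next in size after the 10 largest changes each way, chosen here after their values were seen, included further named increases. PTGES, which makes prostaglandin E, was at 7.33, 7.62, 8.04, 8.17 and 8.03 ad libitum and 8.69, 9.46, 9.47, 9.5 and 9.06 restricted, a change of 1.4 (adjusted p = 0.00228). SULT1A3, a sulfotransferase of phenols and catecholamines, changed by 1.44 (adjusted p = 0.00165) and SCARA5, a ferritin receptor, by 1.25 (adjusted p = 0.0142). CCDC146 changed by 1.21 (adjusted p = 0.00176).

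Among the next decreases, SLC25A33, a mitochondrial pyrimidine nucleotide carrier, was at 12.83, 13.29, 11.57, 12.83 and 13.2 ad libitum and 10.78, 10.1, 11.74, 10.04 and 10.83 restricted. Its change was -2.05 (adjusted p = 0.00616) in the high RFI pigs and -0.63 in the low RFI pigs. In the main fit the interaction passed for no probe set, this one included. ABCB6, a porphyrin transporter, changed by -1.98 on one probe set and -1.44 on the other, and MMD by -1.91 (adjusted p = 0.0058). B2M, the light chain of class I antigens, fell by 1.86 on 1 of its 9 probe sets (adjusted p = 0.0147), while the brightest changed by 0.10 (adjusted p = 0.641).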
